A study of Mus musculus with 8 samples.

Results

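The Slc25 genes encode the mitochondrial carrier family, the set of inner-membrane proteins that move nucleotides, carboxylates, amino acids, cofactors and ions between cytosol and matrix. Members were taken as the genes of the deposited table whose symbol begins with Slc25a followed by a digit, which gave 45 of 15465 genes. They were grouped by the substrate that general knowledge assigns to each carrier. RNA sequencing compared 4 si-nc samples, transfected with a control siRNA, and 4 si-Suclg2 samples, transfected with an siRNA against Suclg2. In both groups the cells were bone marrow cells of wild-type C57/BL6 mice, kept for 6 days in GM-CSF and IL-4 and for 24 hours with lipopolysaccharide, from which CD11c+ cells were bead-selected and cocultured for 9 days with spleen stroma (diffDC in the labels). The labels do not say whether the samples of a group came from separate animals or cultures, so p-values measure only the spread between these samples, which may be technical.

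A mitochondrial carrier is built from repeats of one membrane-spanning module and usually works by exchange, taking one metabolite in for another going out. Dicarboxylate and oxoglutarate carriers pass succinate, malate and 2-oxoglutarate, the acids around the step of the tricarboxylic acid cycle that Suclg2 (a subunit of succinyl-CoA ligase) serves. In myeloid cells carriers of this family connect the cycle to cytosolic citrate, to the malate-aspartate shuttle and to heme and iron-sulfur cluster synthesis.

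Suclg2 was measured at 4.68, 4.69, 4.56 and 4.43 FPKM (fragments per kilobase of transcript, scaled to library size) in si-nc replicates 1 to 4 and at 2.23, 2.30, 2.76 and 2.61 FPKM in si-Suclg2 replicates 1 to 4. The groups did not overlap, and 53.9% of the si-nc mean remained (log2 fold change -0.69 ± 0.066 SE, limma adjusted p = 8.84e-05; two-sided exact permutation p = 0.0286, the smallest that 4 against 4 allows). Summed FPKM ran from 506241 to 539290 per sample. Replicates 1 and 2 of both groups often differed from replicates 3 and 4, as several members below show; the labels name no batch that matches this division. Of the dendritic cell markers, Flt3 (means of 0.0850 and 0.110 FPKM with si-nc and si-Suclg2) and Zbtb46 (0.383 and 0.318 FPKM) were below the level tested. Itgax, which encodes the selected CD11c, was lower with si-Suclg2, at 20.2 and 12.6 FPKM (limma adjusted p = 0.00127), and its groups did not overlap. Ccr7 was at 4.67 and 4.09 FPKM (limma adjusted p = 0.560). Batf3 was at 1.21 and 2.06 FPKM (limma adjusted p = 0.0675, and 0.00712 with the replicate number as a block). The 6 macrophage markers summed to 12372.9 to 15153.2 FPKM with si-nc and 9423.1 to 11253.6 FPKM with si-Suclg2, a sum made up mostly of Lyz2 (means of 10384.2 and 7454.9 FPKM). Its members went both ways, since Lyz2, Cd68 and Csf1r were lower, Adgre1 was higher (333.1 and 596.7 FPKM; limma adjusted p = 0.000165). Mertk did not pass (limma adjusted p = 0.103). The dendritic cell and leukocyte markers, 7 of 8 with a row, summed to 215.6 to 251.8 and 314.7 to 353.1 FPKM, the higher sum being mostly Itgam (97.6 and 197.2 FPKM), which macrophages also express. The 8 fibroblastic stroma markers summed to 8.64 to 21.3 and 7.07 to 16.0 FPKM, with Lum and Pdgfra below 0.1 FPKM in every sample. The endothelial markers, 3 of 4 with a row, summed to 20.6 to 28.8 and 21.1 to 30.7 FPKM, a sum made up mostly of Kdr (means of 25.1 and 25.9 FPKM). Cdh5 was at 0.158 and 0.275 FPKM, and Tek was below 0.1 FPKM in every sample. The T and B cell markers, 2 of 4 with a row, reached at most 0.12 FPKM. The neutrophil markers, 3 of 4 with a row, summed to 0.94 to 1.88 and 1.66 to 3.05 FPKM. The part of the macrophage, leukocyte and neutrophil marker shifts in the results below was not tested, and in bulk RNA fewer cells of a type and less RNA per cell cannot be told apart.

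The family was dominated by a pair of carriers that serve ATP synthesis. Slc25a3, which brings phosphate into the matrix, and Slc25a5, the ADP/ATP translocase ANT2, had si-nc means of 199.0 ± 9.25 and 191.7 ± 18.3 FPKM (SD, n = 4), with overlapping ranges. Together they made up 42.4 ± 1.39% of the family's summed FPKM with si-nc and 41.7 ± 0.505% with si-Suclg2 (SD, n = 4 each). The glutathione carrier gene Slc25a39 (81.6 ± 1.99 FPKM) and the oxoglutarate-malate carrier gene Slc25a11 (71.1 ± 1.53 FPKM) came next. These 4 were the members with an si-nc mean of at least 50 FPKM, while 21 members reached 10 FPKM and 34 reached 1 FPKM. The family summed to 897.2, 890.5, 933.9 and 963.9 FPKM in si-nc replicates 1 to 4 and to 930.6, 931.3, 1020.6 and 1022.9 FPKM in si-Suclg2 replicates 1 to 4. As a share of the FPKM of all genes this was 0.178 ± 0.00317% and 0.185 ± 0.00498% (SD, n = 4 each), and si-Suclg2 replicate 2 lay below si-nc replicates 3 and 4.

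**Figure D1:**
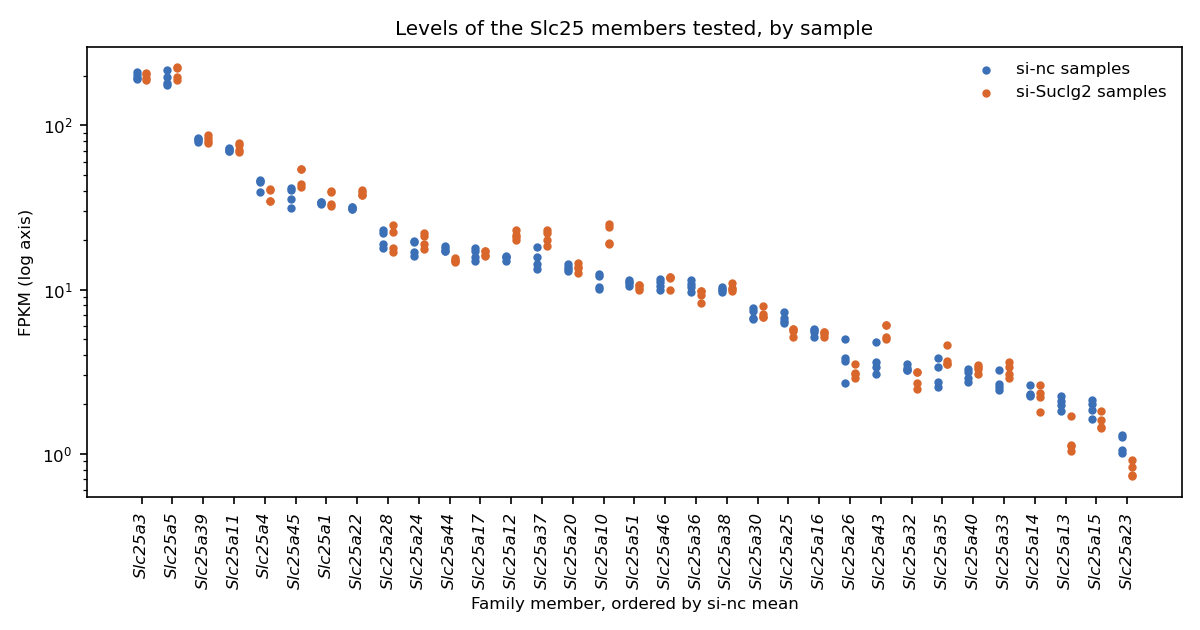
FPKM on a log axis for 33 of the 34 Slc25 members tested, ordered by si-nc mean, with 1 point per sample (blue si-nc, orange si-Suclg2). Slc25a3 (199.0 and 198.9 FPKM) and Slc25a5 (191.7 and 208.6 FPKM) stand apart at the top in both groups, and Slc25a10 has the largest ratio of means between groups, 1.94.

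The other 11 members did not reach a mean of 1 FPKM in either group and were not tested; no sample exceeded 0.950 FPKM for any of them. They were the ADP/ATP translocase gene Slc25a31, the ATP-Mg/phosphate carrier gene Slc25a41, the ornithine carrier gene Slc25a2, the glutamate carrier gene Slc25a18, the basic amino acid carrier gene Slc25a29, the oxodicarboxylate carrier gene Slc25a21, the coenzyme A carrier gene Slc25a42, the uncoupling protein-like gene Slc25a27, and Slc25a34, Slc25a47 and Slc25a53, which have no settled substrate. Slc25a27 was listed at 0.18, 0.20, 0.20 and 0.10 FPKM with si-nc and at 0.05, 0.08, 0.03 and 0.06 FPKM with si-Suclg2, so that its groups did not overlap, at levels near 0. Of the 34 members tested, 33 had a mean of at least 1 FPKM in both groups, and Slc25a23 passed through its si-nc samples alone.

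Of the 34 members tested, 7 were higher and 4 lower with si-Suclg2 (limma on log2(FPKM + 1), Benjamini-Hochberg adjusted p under 0.05 over 10176 genes), and 23 did not pass. The share called was 32.4% of members against 26.9% of all genes tested; 20.6% of members were higher against 12.0% of all genes, and 11.8% were lower against 14.9%. Groups did not overlap for 12 members, or 35.3% against 29.6% of all genes. The median log2 fold change was 0.02 over the members tested and -0.03 over all genes, and the median size of change, regardless of direction, was 0.17 and 0.12. With the replicate number as a block 10 of the 34 members were higher and 5 lower. Of all 10176 genes in that fit, 1832 (18.0%) were higher and 2294 (22.5%) lower. Averaging numbers 1 with 2 and 3 with 4 within each group left 2 values per group, and 0 members then passed in limma (10 at an unadjusted p under 0.05). Of all genes 130 were then higher and 149 lower, or 2.74% called.

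**Figure D2:**
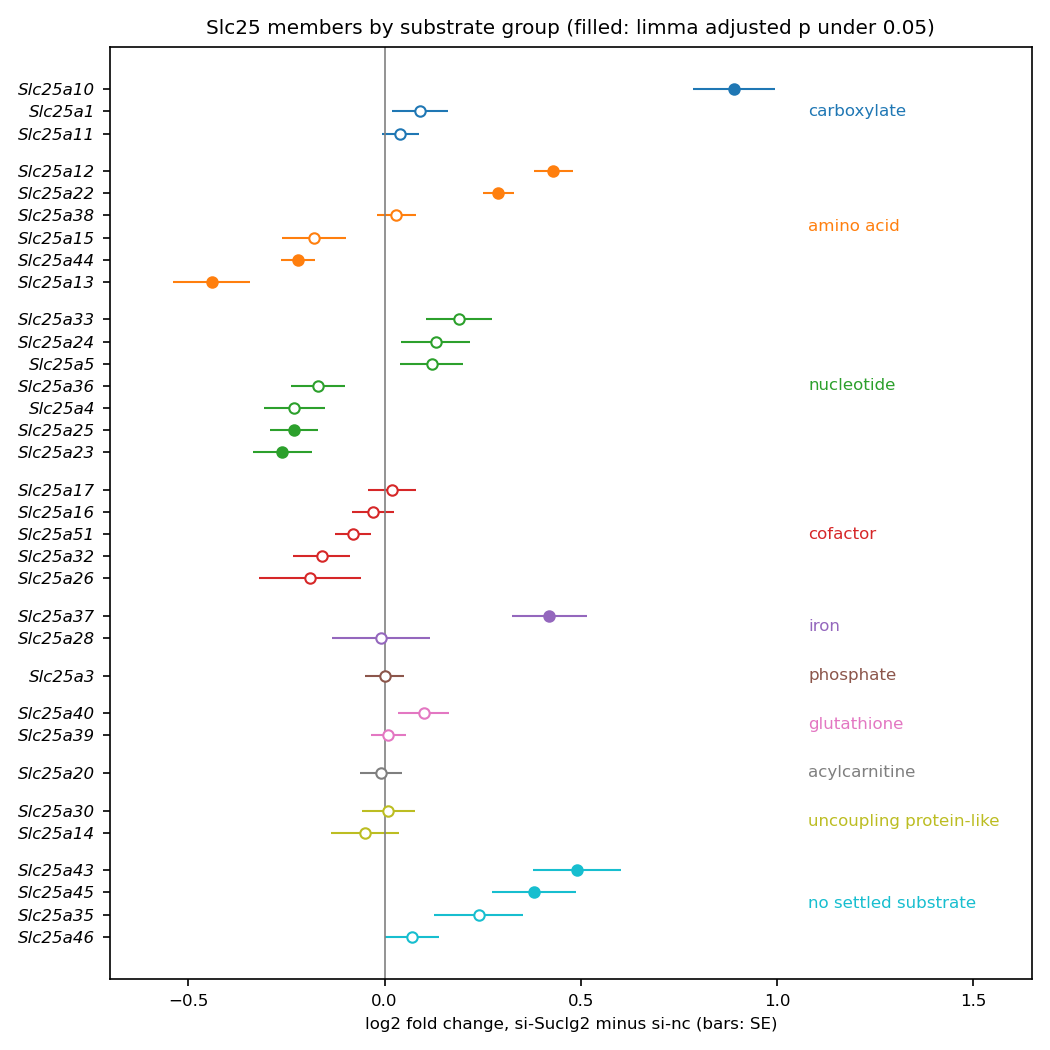
Log2 fold change (si-Suclg2 minus si-nc, bars SE) of 33 of the 34 members tested, by substrate group; filled circles passed limma adjusted p 0.05. Values run from -0.44 for Slc25a13 to 0.89 for Slc25a10, and the amino acid group holds members on both sides of 0.

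Among carboxylate carriers the dicarboxylate carrier rose and its relatives did not pass the test. Slc25a10 (gene ID 27376; GRCm38 chromosome 11, 120491837 to 120501161, protein-coding), whose product exchanges succinate or malate for phosphate or sulfate, stood at 10.34, 10.06, 12.17 and 12.40 FPKM in si-nc replicates 1 to 4 and at 19.11, 18.96, 24.16 and 24.90 FPKM in si-Suclg2 replicates 1 to 4. All si-Suclg2 samples lay above all si-nc samples, and within each group replicates 3 and 4 were higher than replicates 1 and 2. The ratio of means was 1.94 (log2 fold change 0.89 ± 0.105 SE, limma adjusted p = 0.000305). Its means were 10.2 and 19.0 FPKM within numbers 1 and 2 and 12.3 and 24.5 FPKM within numbers 3 and 4. The rise kept its side of the threshold in all alternatives listed for it except that with averaged numbers (limma adjusted p = 0.0520).

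The window from 250 bases before to 50 bases after the Slc25a10 start site is shown because it belongs to the member with the largest change (RefSeq, GRCm38.p6, chr11:120491587-120491886, plus strand); capitals mark a GC box (GGGCGG) on each strand and a CCAAT box on the minus strand.
Slc25a10: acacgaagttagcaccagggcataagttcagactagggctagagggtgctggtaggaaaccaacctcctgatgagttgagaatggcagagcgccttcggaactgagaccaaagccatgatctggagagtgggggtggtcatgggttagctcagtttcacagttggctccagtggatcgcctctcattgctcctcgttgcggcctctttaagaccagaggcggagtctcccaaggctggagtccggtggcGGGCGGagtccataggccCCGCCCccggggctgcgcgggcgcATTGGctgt

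The other carboxylate carriers were Slc25a1, which exports citrate for cytosolic acetyl-CoA, and Slc25a11, which exchanges 2-oxoglutarate for malate. Slc25a1 was at 33.70, 33.98, 33.12 and 33.95 FPKM with si-nc and at 32.24, 33.10, 39.36 and 39.72 FPKM with si-Suclg2. Replicates 1 and 2 of si-Suclg2 lay below all si-nc samples and replicates 3 and 4 above them, and the log2 fold change of 0.09 ± 0.071 SE did not pass (limma adjusted p = 0.387; 95% interval -0.07 to 0.25). It was -0.05 within numbers 1 and 2 and 0.23 within numbers 3 and 4, where it passed (limma adjusted p = 0.00829). Slc25a11 was at 71.1 ± 1.53 and 73.2 ± 4.17 FPKM (SD, n = 4 each; limma adjusted p = 0.585; 95% interval -0.07 to 0.15). Slc25a11 overlaps the protein-coding gene Rnf167, and the strand setting is not known.

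The amino acid carriers moved both ways, and the 2 aspartate/glutamate carriers moved in opposite directions. These paralogs carry aspartate out of the matrix in exchange for glutamate, a step of the malate-aspartate shuttle. Slc25a12 (aralar; gene ID 78830; GRCm38 chromosome 2, 71274270 to 71367781, protein-coding) was at 15.89, 15.80, 15.78 and 14.97 FPKM with si-nc and at 20.02, 21.53, 20.84 and 22.93 FPKM with si-Suclg2. The groups were well apart, with a ratio of 1.37 (log2 fold change 0.43 ± 0.050 SE, limma adjusted p = 0.000302). Slc25a13 (citrin; gene ID 50799; GRCm38 chromosome 6, 6041218 to 6217304, protein-coding) was at 2.09, 2.25, 1.83 and 1.98 FPKM with si-nc and at 1.70, 1.12, 1.14 and 1.04 FPKM with si-Suclg2. All 4 si-Suclg2 samples were lower, replicate 1 least so, with a ratio of 0.613 (log2 fold change -0.44 ± 0.098 SE, limma adjusted p = 0.00916). Slc25a12 made up 88.5 ± 0.857% of the summed FPKM of the pair with si-nc and 94.4 ± 1.54% with si-Suclg2 (SD, n = 4 each), a share chosen after the values were seen and given without a test.

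The start-site windows of this pair are shown because the paralogs moved in opposite directions (RefSeq, GRCm38.p6, minus strand; Slc25a12 at chr2:71367706-71368005 and Slc25a13 at chr6:6217124-6217423). Capitals mark an E-box (CACGTG) and a CCAAT box in Slc25a13, and none of the motifs searched lies in the Slc25a12 window. The start sites of these 2 windows lie inside the gene spans given above, not at their ends. Both motifs marked in Slc25a13 therefore lie within its printed span.
Slc25a12: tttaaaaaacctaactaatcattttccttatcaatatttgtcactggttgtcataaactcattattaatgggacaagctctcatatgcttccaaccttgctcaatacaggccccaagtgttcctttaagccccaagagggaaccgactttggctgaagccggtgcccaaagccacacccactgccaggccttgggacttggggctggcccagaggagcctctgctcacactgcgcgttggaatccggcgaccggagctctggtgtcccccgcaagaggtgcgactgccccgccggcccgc
Slc25a13: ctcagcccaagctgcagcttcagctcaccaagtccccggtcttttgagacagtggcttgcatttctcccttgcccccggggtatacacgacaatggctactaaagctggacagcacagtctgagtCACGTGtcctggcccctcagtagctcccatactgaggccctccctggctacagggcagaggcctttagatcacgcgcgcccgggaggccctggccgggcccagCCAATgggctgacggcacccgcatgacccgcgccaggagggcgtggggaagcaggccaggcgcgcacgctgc

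Motifs searched on both strands were the GC box GGGCGG, the E-box CACGTG, the CCAAT box CCAAT and the TATA box TATAAA. RefSeq windows were found for 34 of the 45 members, 44 windows in all. The GC box lay in 84.1% of member windows, in 63.0% of the 10490 windows of genes tested and in 35.7% of all 32851 windows. The corresponding shares were 18.2%, 10.4% and 7.15% for the E-box, 22 of 44 windows, 37.7% and 37.4% for the CCAAT box, and 4.55%, 6.96% and 13.6% for the TATA box. These shares are descriptions of the letters, and windows of one gene can overlap.

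Slc25a22, a carrier that imports glutamate with a proton, was at 31.94, 31.95, 31.12 and 30.95 FPKM with si-nc and at 37.44, 37.60, 40.33 and 39.35 FPKM with si-Suclg2. The groups did not overlap and the spread was small in both (ratio 1.23; log2 fold change 0.29 ± 0.040 SE, limma adjusted p = 0.000761). Slc25a44, which carries branched-chain amino acids, was at 17.21, 18.36, 17.97 and 17.07 FPKM with si-nc and at 14.93, 15.11, 15.46 and 14.67 FPKM with si-Suclg2. Every si-Suclg2 sample was lower (ratio 0.852; log2 fold change -0.22 ± 0.043 SE, limma adjusted p = 0.00523). Neither the ornithine carrier gene Slc25a15 (1.91 ± 0.221 and 1.58 ± 0.181 FPKM; limma adjusted p = 0.142) nor the glycine carrier gene Slc25a38 (log2 fold change 0.03, 95% interval -0.08 to 0.14; limma adjusted p = 0.682) passed. The group thus had 2 members higher and 2 lower of 6 tested (33.3% each, against 12.0% and 14.9% of all genes tested).

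Of 7 nucleotide carriers tested 0 passed as higher and 2 fell, so that 28.6% were called against 26.9% of all genes tested. By direction, 28.6% were lower against 14.9% of all genes. Both that fell, Slc25a25 and Slc25a23, encode calcium-regulated ATP-Mg/phosphate carriers, which set the adenine nucleotide content of the matrix. Slc25a23 entered the test through its si-nc samples alone, the group where it was higher. Slc25a25 was at 6.23, 7.32, 6.67 and 6.47 FPKM with si-nc and at 5.78, 5.57, 5.72 and 5.17 FPKM with si-Suclg2, with groups that did not overlap (ratio 0.833; log2 fold change -0.23 ± 0.061 SE, limma adjusted p = 0.0230). This call was lost when si-nc replicate 2 was left out (adjusted p = 0.0608) or si-Suclg2 replicate 4 was (adjusted p = 0.0644), and the gene overlaps the protein-coding gene Naif1, from which reads cannot be told apart without knowing the strand setting. Slc25a23 was at 1.02, 1.06, 1.26 and 1.30 FPKM with si-nc and at 0.73, 0.74, 0.92 and 0.83 FPKM with si-Suclg2 (ratio 0.694; log2 fold change -0.26 ± 0.076 SE, limma adjusted p = 0.0319). Its groups did not overlap, but leaving out a single library lost the call for si-nc replicates 3 and 4 (adjusted p = 0.0736 and 0.0852) and for si-Suclg2 replicates 1, 2 and 4 (adjusted p = 0.0718, 0.0775 and 0.0625). Slc25a24, the third ATP-Mg/phosphate carrier tested, ranged from 16.10 to 19.87 FPKM with si-nc and from 17.67 to 22.09 FPKM with si-Suclg2 (log2 fold change 0.13 ± 0.088 SE, limma adjusted p = 0.309), and passed with the replicate block (adjusted p = 0.0353).

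The 2 ADP/ATP translocases expressed here differed in sign without passing the test. Slc25a4 (ANT1) was at 45.73, 46.57, 39.08 and 45.17 FPKM with si-nc and at 34.50, 34.47, 40.60 and 40.71 FPKM with si-Suclg2. The groups overlapped through si-nc replicate 3, and the ratio was 0.747 within numbers 1 and 2 and 0.965 within numbers 3 and 4 (log2 fold change -0.23 ± 0.077 SE, limma adjusted p = 0.0540; 95% interval -0.40 to -0.06; adjusted p = 0.0402 with the replicate block). It passed as lower when replicate 3 of si-nc was left out (adjusted p = 0.0238), and likewise for replicates 3 and 4 of si-Suclg2 (0.0477 and 0.0476). Slc25a5 (ANT2) was at 179.90, 175.08, 196.42 and 215.41 FPKM with si-nc and at 189.39, 197.09, 224.51 and 223.57 FPKM with si-Suclg2, again with overlap (log2 fold change 0.12 ± 0.080 SE, limma adjusted p = 0.300; adjusted p = 0.0299 with the block). Slc25a4 made up 20.3, 21.0, 16.6 and 17.3% of the pair's FPKM in si-nc replicates 1 to 4 and 15.4, 14.9, 15.3 and 15.4% in si-Suclg2 replicates 1 to 4. Each si-Suclg2 share was below each si-nc share, a description chosen after the values were seen; the genes are close in sequence, so the split of reads between them is uncertain. The pyrimidine nucleotide carriers Slc25a33 (2.72 ± 0.345 and 3.23 ± 0.306 FPKM, SD, n = 4 each) and Slc25a36 (10.6 ± 0.731 and 9.30 ± 0.723 FPKM) did not pass (limma adjusted p = 0.128 and 0.0944); Slc25a33 passed as higher without si-nc replicate 4 (adjusted p = 0.0495).

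**Figure D3:**
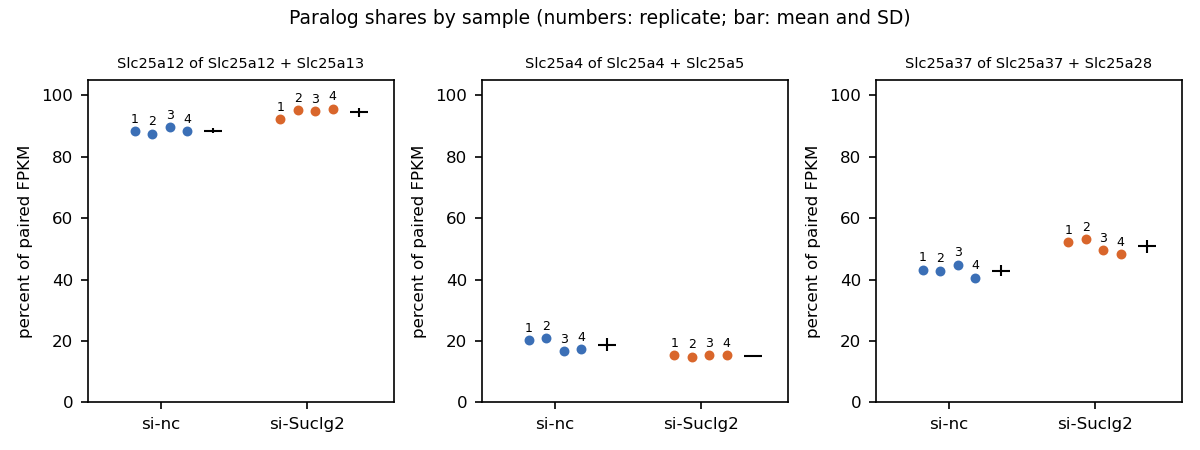
Percent of the summed FPKM of 3 paralog pairs that came from the first-named gene, 1 point per sample with its replicate number, and mean and SD beside them. With si-Suclg2 the share of Slc25a12 and of Slc25a37 was above, and that of Slc25a4 below, every si-nc sample.

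Of the 2 mitoferrins, which import iron into mitochondria for heme and iron-sulfur clusters, the one best known from erythroid cells rose. Slc25a37 (mitoferrin 1; gene ID 67712; GRCm38 chromosome 14, 69241848 to 69285544, protein-coding) was at 14.40, 13.40, 18.08 and 15.74 FPKM with si-nc and at 18.40, 20.16, 22.12 and 22.95 FPKM with si-Suclg2. The groups were separated only narrowly, by si-nc replicate 3 and si-Suclg2 replicate 1 (ratio 1.36; log2 fold change 0.42 ± 0.095 SE, limma adjusted p = 0.0101). Slc25a28 (mitoferrin 2) was at 18.91, 17.80, 22.18 and 23.04 FPKM with si-nc and at 16.84, 17.83, 22.46 and 24.53 FPKM with si-Suclg2. Replicates 3 and 4 were the higher ones in both groups, and the groups overlapped (log2 fold change -0.01 ± 0.125 SE, limma adjusted p = 0.955; 95% interval -0.29 to 0.27). Slc25a37 made up 42.9 ± 1.78% of the pair's FPKM with si-nc and 50.8 ± 2.21% with si-Suclg2 (SD, n = 4 each; no test).

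The 5 cofactor carriers described here did not pass in limma, and 1 of them, Slc25a32, was under an unadjusted p of 0.05. Slc25a32, a folate and FAD carrier, had groups that did not overlap, at 3.52, 3.33, 3.23 and 3.25 FPKM with si-nc and 3.13, 3.17, 2.71 and 2.50 FPKM with si-Suclg2, but missed the threshold (log2 fold change -0.16 ± 0.072 SE, limma adjusted p = 0.126). Slc25a26, which imports S-adenosylmethionine, ranged from 2.70 to 5.01 FPKM with si-nc and from 2.90 to 3.54 FPKM with si-Suclg2 (limma adjusted p = 0.324). Slc25a26 overlaps the protein-coding gene Lrig1, and the strand setting is not known. The NAD+ carrier gene Slc25a51 (log2 fold change -0.08, 95% interval -0.18 to 0.03), the peroxisomal cofactor carrier gene Slc25a17 (16.5 ± 1.33 and 16.6 ± 0.645 FPKM) and Slc25a16, linked to coenzyme A (5.51 ± 0.275 and 5.39 ± 0.177 FPKM), had limma adjusted p of 0.254, 0.874 and 0.758.

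The phosphate, glutathione, acylcarnitine and uncoupling protein-like carriers tested did not pass, and their 95% intervals included 0. Slc25a3 was at 190.34, 193.16, 201.59 and 210.88 FPKM with si-nc and at 193.30, 189.21, 204.78 and 208.12 FPKM with si-Suclg2, higher in replicates 3 and 4 of both groups (95% interval of the log2 fold change -0.11 to 0.11; limma adjusted p = 0.993). The glutathione carriers Slc25a39 (81.6 ± 1.99 and 82.1 ± 3.99 FPKM) and Slc25a40 (3.02 ± 0.249 and 3.30 ± 0.169 FPKM) had 95% intervals of -0.09 to 0.11 and -0.05 to 0.24 (limma adjusted p = 0.923 and 0.317). For the acylcarnitine carrier gene Slc25a20, which feeds fatty acid oxidation, the means were 13.6 ± 0.551 and 13.5 ± 0.771 FPKM (95% interval -0.13 to 0.11; limma adjusted p = 0.922). The uncoupling protein-like genes Slc25a30 (7.09 ± 0.523 and 7.18 ± 0.548 FPKM) and Slc25a14 (2.36 ± 0.169 and 2.25 ± 0.349 FPKM) had 95% intervals of -0.14 to 0.17 and -0.25 to 0.14 (limma adjusted p = 0.901 and 0.697).

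Of 4 tested carriers without a settled substrate 2 rose and 0 fell. Of all genes tested, 12.0% rose and 14.9% fell. Slc25a43 was at 3.64, 4.81, 3.06 and 3.38 FPKM with si-nc and at 6.07, 5.01, 6.11 and 5.16 FPKM with si-Suclg2 (log2 fold change 0.49 ± 0.112 SE, limma adjusted p = 0.0107). Its groups were closest at si-nc replicate 2 and si-Suclg2 replicate 2. Slc25a45 was at 35.49, 31.48, 41.57 and 40.17 FPKM with si-nc and at 44.08, 42.18, 53.81 and 54.17 FPKM with si-Suclg2 (ratio 1.31; log2 fold change 0.38 ± 0.107 SE, limma adjusted p = 0.0285; 0.000105 with the replicate block). Its groups were just apart, and the ratio was 1.29 within numbers 1 and 2 and 1.32 within numbers 3 and 4. In the fit with no block its call was lost on leaving out replicate 1 or 2 of si-nc (adjusted p = 0.0681 and 0.0687), and likewise for replicates 3 and 4 of si-Suclg2 (0.0751 and 0.0771). Slc25a35 (3.12 ± 0.593 and 3.84 ± 0.529 FPKM) passed only with the block of these 2 fits (limma adjusted p = 0.152, and 0.0230 with the block), and it overlaps the protein-coding gene Rangrf. Slc25a46, an outer-membrane member involved in mitochondrial dynamics, was at 10.8 ± 0.734 and 11.4 ± 0.940 FPKM (limma adjusted p = 0.496).

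**Figure D4:**
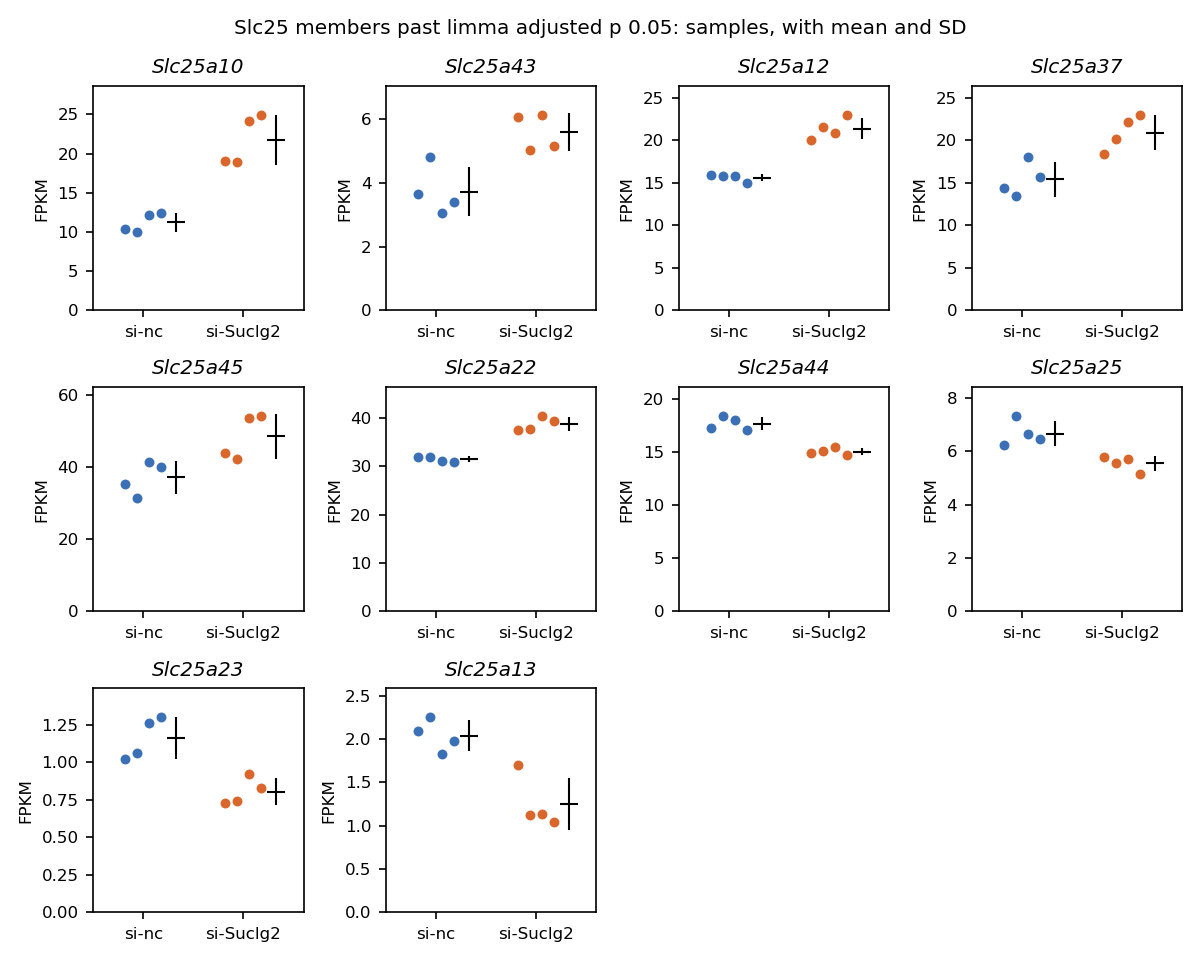
FPKM per sample (replicates 1 to 4 from left to right) with mean and SD for 10 of the 11 members past limma adjusted p 0.05, each panel from 0. The 6 members drawn that rose and the 4 that fell have no overlap between groups; replicates 3 and 4 of Slc25a10 and Slc25a45 lie above replicates 1 and 2 within each group.

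Carriers of the same fold that go by other symbols did not pass. Ucp2, an uncoupling protein of immune cells, was at 496.3 ± 19.1 and 516.9 ± 26.2 FPKM (SD, n = 4 each; limma adjusted p = 0.450), above every Slc25a gene in both groups, and the carrier-like outer-membrane genes Mtch1 (52.5 ± 2.29 and 52.8 ± 1.66 FPKM) and Mtch2 (55.8 ± 2.11 and 56.3 ± 2.80 FPKM) had adjusted p of 0.925 and 0.869. Ucp1 and Ucp3 were below the level tested, and of the 3 tested 0 were under an unadjusted p of 0.05. Of 16 genes of the machinery that imports carriers through the TOM and TIM22 complexes, 1 was higher and 1 lower, with a median log2 fold change of 0.00. Each was 6.25% of the list, against 12.0% higher and 14.9% lower of all genes tested. Timm10b, of the small TIM chaperones, rose from a mean of 28.2 FPKM (ratio 1.17; limma adjusted p = 0.0127), and Timm29, of the TIM22 complex, fell from 14.7 ± 0.367 to 13.3 ± 0.461 FPKM (limma adjusted p = 0.0478). The list had 0 falls when any single sample was left out, 2 rises without si-nc replicate 4, and 3 rises and 2 falls with the replicate block. Of all genes in the block fit, 18.0% rose and 22.5% fell.

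Of 22 other mitochondrial transporter and channel genes tested, 6 rose and 3 fell (median log2 fold change 0.07). These were 27.3% and 13.6% of the list, against 12.0% and 14.9% of all genes tested. Sfxn5, a sideroflexin, rose from 3.17 ± 0.227 to 8.34 ± 0.181 FPKM (ratio 2.63; log2 fold change 1.16 ± 0.056 SE). Tspo, the outer-membrane translocator protein, rose from 148.3 ± 11.3 to 218.9 ± 18.9 FPKM, the porin Vdac3 from 75.3 ± 3.34 to 94.6 ± 5.81 FPKM, and the calcium uniporter subunits Mcub from 27.4 ± 2.16 to 33.9 ± 0.675 FPKM and Smdt1 from 82.7 ± 3.13 to 98.4 ± 7.90 FPKM. Mpc1, a subunit of the pyruvate carrier, fell from 115.1 ± 17.7 to 68.1 ± 6.14 FPKM (ratio 0.592; log2 fold change -0.74 ± 0.105 SE, limma adjusted p = 0.000839), while its partner Mpc2 was at 22.8 ± 0.904 and 24.0 ± 2.34 FPKM (limma adjusted p = 0.502). Without si-nc replicate 4 this list had 1 fall, and with the replicate block 7 rises and 5 falls. In the block fit 18.0% of all genes rose and 22.5% fell.

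Of 32 enzymes tested that make or use what the carriers move, 3 rose and 7 fell (median log2 fold change -0.07). These were 9.38% and 21.9% of the list, against 12.0% and 14.9% of all genes tested. Mthfd2, of mitochondrial folate metabolism, rose from 36.1 ± 1.78 to 53.0 ± 2.72 FPKM, Alas1, the first enzyme of heme synthesis, from 39.3 ± 1.22 to 53.4 ± 2.50 FPKM, and citrate synthase, Cs, from 74.4 ± 1.95 to 84.3 ± 2.16 FPKM (limma adjusted p = 8.87e-05, 0.000161 and 0.00784). Got1, the cytosolic aspartate aminotransferase of the malate-aspartate shuttle, fell from 42.0 ± 4.12 to 31.7 ± 3.61 FPKM, Idh1, the cytosolic isocitrate dehydrogenase, from 52.0 ± 3.10 to 38.7 ± 2.32 FPKM, and Mat2a, which makes S-adenosylmethionine, from 45.7 ± 3.04 to 34.3 ± 0.452 FPKM (limma adjusted p = 0.0106, 0.000747 and 0.000442). The other shuttle enzymes Got2, Mdh1 and Mdh2 did not pass (limma adjusted p = 0.377, 0.111 and 0.0562). Mdh1 and Mdh2 passed as higher with the replicate block (limma adjusted p = 0.0249 and 0.0134). The falls numbered 4 on leaving out either si-nc replicate 1 or else replicate 4 of si-Suclg2. With the replicate block 7 enzymes rose and 11 fell, beside 18.0% and 22.5% of all genes in that fit.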

How the data were processed

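The authors deposited one table with a value per gene and sample for 4 si-nc and 4 si-Suclg2 samples. Its header names no unit. The values were treated as FPKM made by the authors, because the reads implied by the deposited p-value and log2 fold change, per unit of value, increased with transcript length, at a Spearman rho of 0.859 over 5574 genes (not independent replicates), and did not once divided by length (rho of -0.0107). This does not tell FPKM from another length-scaled unit, and the depth is unknown, so no counting interval is given. The p-value and q-value are the authors', from DEGseq, per the file headers; the authors' log2 fold change is positive where si-Suclg2 is higher, read from the values, and neither served as a result here. Genome builds were GRCm38.p4 and mm10, per the submitters' processing notes; the sources used here name no aligner, counting tool or strand setting. Gene positions and start-site windows are from RefSeq on GRCm38.p6.

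Genes with a mean of at least 1 FPKM in one group entered a limma (3.58.1, R 4.3.3) fit of log2(FPKM + 1) on group, with a variance trend; p-values were adjusted by Benjamini-Hochberg over 10176 genes, at 0.05. The log2 fold change on this scale understates changes of low genes; ratios are of mean FPKM. The test was tried first on simulated data with independent errors for each sample. That trial did not cover the division between replicate numbers described above. Deviations from the group means correlated between equal numbers of the 2 groups with r of 0.405 to 0.553 across genes. Correlations with another number reached 0.437 to 0.558, and for numbers 2, 3 and 4 exceeded that with the equal number. The main fit left the samples unpaired. The replicate block is an alternative, given beside each gene named whose call it changes. Members, lists, substrate groups and tests were chosen with earlier results of these data known. The genes named are Suclg2, members past the threshold, members whose groups do not overlap, the most abundant member of each substrate group and up to 6 genes past the threshold per list; other members are named to account for the family, and 1 member and 1 marker are counted but not reported here, and Mpc2, Got2, Mdh1, Mdh2, Ucp2, Mtch1, Mtch2 and the paralog shares were chosen after their values were seen. Alternatives were another pseudocount, filters, scalings, a fit without trend, the block, each sample left out, and subsets or means of numbers.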

Additional observations from a re-analysis of the deposited data

Results flagged for a closer look

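In each group of 4 samples, for Suclg2 and the 34 members tested, the gap between the most extreme sample and its neighbour was divided by the group's range and set against Dixon's 95% critical value. The gap passed it in 5 of 70 groups, where chance alone flags about 1 in 20. Slc25a12 was lowest in si-nc replicate 4, at 15.0 FPKM against at least 15.78 FPKM in the others. Slc25a13 was highest in si-Suclg2 replicate 1, at 1.70 FPKM against at most 1.14 FPKM in the others, a value nearer to the si-nc samples. Slc25a35 was highest in si-Suclg2 replicate 3, at 4.63 FPKM. Slc25a46 was lowest in si-Suclg2 replicate 3, at 9.99 FPKM, and Slc25a14 was highest in si-nc replicate 4, at 2.61 FPKM.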

How the results depend on the processing

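With each sample left out in turn, 6 to 8 members were higher and 3 to 5 lower, the median of the members ran from 0.015 to 0.039, and Suclg2 from -0.73 to -0.65. With means of number pairs as replicates 0 members were higher and 0 lower, and with a minimum mean of 5 FPKM 2 were lower, since Slc25a13 and Slc25a23 are then not tested. With no filter 6 were higher, Slc25a45 being lost (adjusted p = 0.0507), and 5 lower, Slc25a27 being added (-0.15, limma adjusted p = 0.0128). Slc25a43 was lost with numbers 1 and 2 alone (0.33, adjusted p = 0.0727). The replicate block changed no call of the members beyond the 4 gains given above, of Slc25a4, Slc25a5, Slc25a24 and Slc25a35. Trimmed-mean scaling moved the median of the members to 0.057 and that of all genes from -0.025 to 0.015, and the share of higher genes among all genes called from 44.6% to 57.9%. A common column sum moved that share to 38.2%. Slc25a23 was also lost with trimmed-mean scaling (adjusted p = 0.0517), quantile normalization (0.332), numbers 1 and 2 alone (0.126) and numbers 3 and 4 alone (0.0691), and Slc25a25 with quantile normalization (0.0614) and numbers 1 and 2 alone (0.0798). Slc25a4 passed as lower with quantile normalization (0.0300), a common column sum (0.0241) and numbers 1 and 2 alone (0.000182), and Slc25a33 as higher with quantile normalization (0.0290) and numbers 1 and 2 alone (0.0212). With numbers 1 and 2 alone Slc25a26 (adjusted p = 0.0353) passed as lower and Slc25a35 (0.0130) and Slc25a5 (0.0397) as higher, and with numbers 3 and 4 alone Slc25a1 (0.00829) passed as higher and Slc25a36 (0.0272) as lower. With averaged numbers the import list had 0 calls, the transporters 1 rise and the enzymes 1 rise; trimmed-mean scaling gave 3 rises in the import list and 6 among the enzymes, and numbers 1 and 2 alone gave 4 falls in the import list and 5 rises among the enzymes. In the import list, the pseudocount of 0.1 and the 5 FPKM minimum each gave 2 rises, a common column sum gave 2 falls, and no filter, either other scaling and the fit without trend gave 0 falls. The pseudocount of 0.1 and the fit without trend gave 7 higher and 4 lower.

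Changes of sign were seen among members that did not pass with all 8 samples; Slc25a26, at -0.19 there, was at -0.40 with numbers 1 and 2 alone. With a common column sum Slc25a30 and Slc25a17 were at -0.01 and Slc25a39 at -0.02. With quantile normalization Slc25a39 was at -0.02, Slc25a20 at 0.02, Slc25a14 at 0.04 and Slc25a16 at 0.03. With trimmed-mean scaling Slc25a28 and Slc25a20 were at 0.03 and Slc25a16 at 0.01. With numbers 1 and 2 alone Slc25a1 was at -0.05, Slc25a20 at 0.03 and Slc25a14 at 0.06, and with numbers 3 and 4 alone Slc25a17 was at -0.03, Slc25a28 at 0.05, Slc25a16 at 0.01 and Slc25a26 at 0.02. With single samples left out the ranges were -0.03 to 0.05 for Slc25a30, -0.02 to 0.06 for Slc25a17, -0.02 to 0.03 for Slc25a39, -0.10 to 0.07 for Slc25a28, -0.04 to 0.02 for Slc25a20 and -0.11 to 0.02 for Slc25a14. The cause of these shifts was not tested. Library depth is not known, which limits what can be said of members below 1 FPKM.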
